A study of Mus musculus with 15 samples.

Results

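The amino acid transporters described here are 10 genes whose products carry amino acids across the plasma membrane of T cells: Slc7a5, Slc3a2, Slc7a1, Slc7a3, Slc7a6, Slc7a11, Slc1a4, Slc1a5, Slc38a1 and Slc38a2. They were chosen by symbol from 55536 annotated mouse genes, and all 10 passed the filter on low counts that left 24262 genes for testing. The RNA came from CD8+ T cells of OT-I mice, which carry a transgenic T cell receptor for the SIINFEKL peptide of ovalbumin and, per the study's methods, lack Rag1 or Rag2. The cells had been transferred into wild-type C57BL/6J mice. Recipients in the Ag group (5 libraries) received the peptide with rat IgG. In the Ag+Costim group (5 libraries), the peptide was given with agonist antibodies against OX40 (CD134) and 4-1BB (CD137), which are costimulatory receptors of activated T cells. Donor cells were sorted from spleen and lymph nodes on CD8, the donor marker CD45.1 and both chains of the transgenic receptor. The labels place the sort at day 4, and the methods at 3 days and 12 h after stimulation. The study used mice of both sexes aged 1.5 to 8 months, and the sexes and ages of single recipients are not given in the sources used here. The Naive group, cells taken straight from OT-I mice, was not analysed here.

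T cells that leave rest need far more amino acids than resting cells, and they raise uptake by making more transporter. Slc7a5 (LAT1) brings in leucine and other large neutral amino acids in exchange for glutamine, and reaches the cell surface only as a pair with the heavy chain Slc3a2 (CD98). Glutamine and small neutral amino acids enter through Slc1a5, Slc38a1 and Slc38a2, arginine and lysine through Slc7a1 and Slc7a3, and cystine through Slc7a11. In activated T cells, Slc7a5 is needed for mTORC1 activity and for the accumulation of the transcription factor Myc.

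The libraries held 59598556 to 449401065 estimated counts in Ag and 332290834 to 639070261 in Ag+Costim, which are derived from coverage and are not numbers of reads. The Ag libraries were the less alike, with a lowest correlation of log2 CPM across genes of 0.910 between a pair of them against 0.993 within Ag+Costim. Genes with a count numbered between 20714 and 51778 in Ag and between 28727 and 30340 in Ag+Costim. The summed level of 5 T cell and CD8 markers was 2521 to 4965 CPM (counts scaled to a common library total) in Ag, and 3243 to 4060 CPM with costimulation. Markers of other cells were uneven across Ag replicates 1 to 5. B cell markers summed to 112, 17.5, 293, 141 and 20.8 CPM, and erythroid markers to 98.5, 24.2, 856, 33.7 and 11.1 CPM, against 14.4 to 31.9 and 2.79 to 31.7 CPM in Ag+Costim. In both sets 3 of 5 genes were lower in Ag+Costim at an unadjusted p under 0.05 in edgeR (10.7% of all genes). DESeq2 called 3 of 5 lower in each (12.5% of the genes with a DESeq2 adjusted p). Myeloid markers went the other way, with 49.7 to 129 CPM in Ag against 84.0 to 173 CPM in Ag+Costim. Of 6 genes, 5 were higher, 2 of them at an unadjusted p under 0.05 in edgeR (7.89% of all genes), and DESeq2 called none. CD4 T cell markers summed to at most 11.4 CPM, and the B cell factor Pax5 was at 0 in Ag replicates 2 and 5. Mitochondrial genes held 1.20 to 1.96% of the counts in Ag and 0.943 to 1.18% in Ag+Costim, without overlap, and the part of these markers and this share in the transporter differences was not tested. The summed level of 20 proliferation genes was 1569 and 1684 CPM in Ag replicates 1 and 4, and 7308 to 14646 CPM in the other 8 libraries.

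Transporter levels were compared between Ag and Ag+Costim to see how costimulation during priming bears on amino acid uptake genes. In CPM scaled with TMM factors, Slc7a5, Slc7a1, Slc38a1 and Slc38a2 were higher in every Ag+Costim library than in any Ag library. Slc7a5 had the widest gap of these, with a mean 2.42 times the Ag mean. Slc1a5, the most abundant of the 10 per length, had overlapping groups with mean CPM within 1.06-fold. Per transcript length (TPM, explained below), Slc7a5 and Slc7a6 were higher in every Ag+Costim library. Slc7a1, Slc38a1 and Slc38a2 then overlapped between the groups. The share of all genes without overlap in TPM was not computed. With edgeR's quasi-likelihood test and p-values adjusted by Benjamini-Hochberg (BH) for all 24262 genes, none of the 10 passed 0.05, and neither did any other gene (0% of 24262). In bulk RNA, fewer cells with a high level and less RNA in each cell cannot be told apart.

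The 4 genes without overlap compare with 4.48% of all genes tested that lay higher in every Ag+Costim library, and no transporter lay lower in every one (1.13% of all genes). Among the 7 transporters with a mean of 10 CPM or more in either group, the same 4 lay higher, against 11.3% of all genes at that level. At an unadjusted p under 0.05 in edgeR, 5 transporters were higher (7.89% of all genes were) and 1 was lower (10.7% of all genes). The median log2 fold change was 0.49 over the 10 transporters and -0.32 over all genes tested, and 0.24 over all genes of at least 10 CPM. DESeq2 gave an adjusted p for 9 of the 10 and called Slc38a2 (0.0036) and Slc38a1 (0.031) higher and none lower. Of the 43379 genes with a DESeq2 adjusted p, a larger set than the 24262, it called 1.79% higher and 12.5% lower. With limma's voom and a quality weight per library, 7 of 10 passed as higher and none as lower, where 25.7% and 26.3% of all genes passed. The log2 fold change of Slc7a5 was then 2.96 in place of the 1.28 from edgeR.

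**Figure D1:**
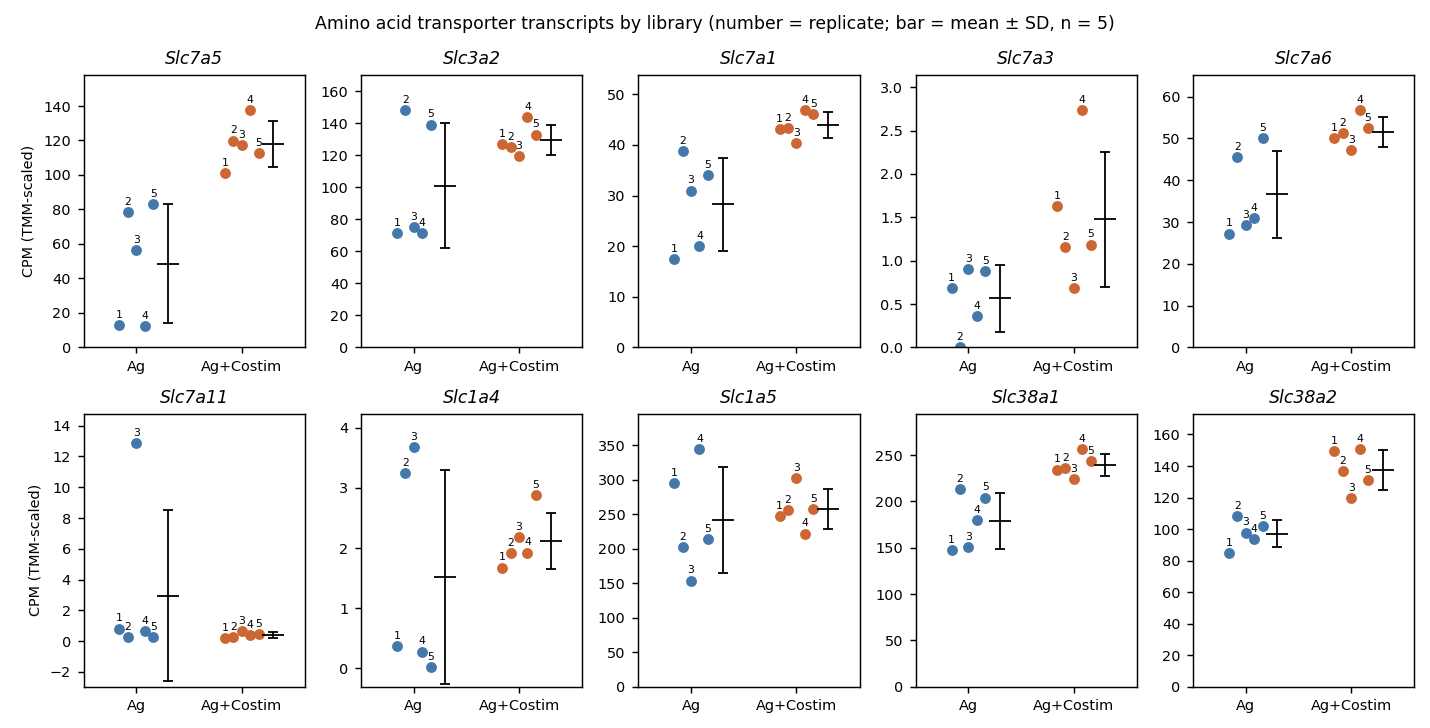
Level of each of the 10 transporters in every library, in CPM scaled with TMM factors, with each point labelled by its replicate number and bars giving mean ± SD (n = 5 per group). Slc7a5, Slc7a1, Slc38a1 and Slc38a2 do not overlap between Ag and Ag+Costim, Slc7a11 has 1 high point in Ag replicate 3 (12.8 CPM), and the axes of Slc7a11 and Slc1a4 extend below 0 only to show the SD.

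Slc7a5 (chr8:121881150-121907694, minus strand, mm10) encodes the light chain that moves the amino acids. It read 13.1, 78.7, 56.2, 12.2 and 82.9 CPM in Ag replicates 1 to 5 and 101, 120.0, 117, 138 and 113 CPM in Ag+Costim replicates 1 to 5. All 5 Ag+Costim libraries were above all Ag libraries, and Ag replicates 1 and 4 were far below the other Ag libraries. Within Ag the highest library was 6.80 times the lowest, a wider range than the 2.42-fold difference between the group means, whereas within Ag+Costim it was 1.36 times. The log2 fold change was 1.28 (SE 0.51), with an unadjusted p of 0.029 and an adjusted p of 0.258 in edgeR.

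Slc3a2 (chr19:8706882-8723369, minus strand) encodes the heavy chain, which pairs with Slc7a5 and also with Slc7a6 and Slc7a11. Its levels were 71.2, 148, 75.2, 71.4 and 139 CPM in Ag, and 127, 125, 119, 144 and 133 CPM with costimulation. Ag replicates 2 and 5 lay among the Ag+Costim libraries, replicate 2 above all of them, while Ag replicates 1, 3 and 4 lay well below. On the log2 scale the fold change was 0.36 (SE 0.24, edgeR adjusted p = 0.362).

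Since both chains are needed in 1 complex, their levels were also compared per transcript length, as TPM (counts over transcript length, again scaled to a common total), within each library. The ratio of Slc3a2 to Slc7a5 was 10.5, 3.53, 2.43, 11.2 and 3.11 in Ag replicates 1 to 5. In Ag+Costim it was 2.43, 1.89, 1.86, 1.901 and 2.22. The heavy chain exceeded the light chain in every library, and the ratio in Ag replicate 3 was nearly that of Ag+Costim replicate 1. On the log2 scale the ratio averaged 2.32 ± 1.04 over the Ag libraries and 1.04 ± 0.17 over the Ag+Costim libraries (SD, n = 5 each), a difference of -1.29 (two-sided exact permutation test, p = 0.0079, the smallest that 252 assignments allow). A ratio within a library does not depend on how libraries are scaled, and it does not say which chain changed.

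**Figure D2:**
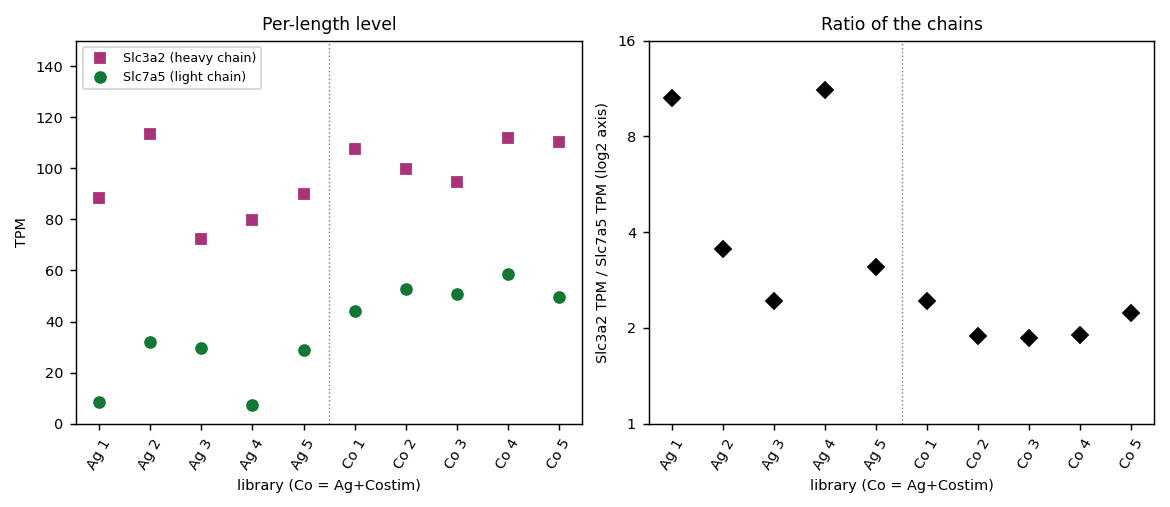
Left, TPM of Slc3a2 (squares) and Slc7a5 (circles) in each library. Right, their ratio in each library on a log2 axis, with Ag replicates 1 and 4 above 10 and the 5 Ag+Costim libraries between 1.86 and 2.43.

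Per length, Slc1a5 was first and Slc3a2 second in both groups. In Ag+Costim the order by mean TPM was Slc1a5 (145 ± 16.8, SD, n = 5), Slc3a2 (105 ± 7.31), Slc38a1 (62.7 ± 4.23), Slc7a5 (51.3 ± 5.26), Slc38a2 (44.6 ± 3.97), Slc7a6 (23.7 ± 1.68), Slc7a1 (10.1 ± 0.52) and Slc7a3 (1.01 ± 0.51). Slc1a4 (0.8289 ± 0.19) and Slc7a11 (0.072 ± 0.033) came last. Neighbours overlapped at 3 places in this order, namely Slc38a1 with Slc7a5, Slc7a5 with Slc38a2, and Slc7a3 with Slc1a4. In Ag, Slc7a5 (21.3 ± 12.4 TPM) came after Slc38a2 (35.0 ± 5.68 TPM), and Slc1a5 (162 ± 81.2 TPM) overlapped Slc3a2 (88.8 ± 15.5 TPM).

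Of the carriers of cationic amino acids, Slc7a1 (CAT1, chr5:148327410-148399904, minus strand) was above Slc7a3 and below Slc7a6 in mean TPM in both groups. It read 17.4, 38.8, 31.0, 20.1 and 34.0 CPM in Ag, and 43.1, 43.3, 40.3, 46.9 and 46.1 CPM with costimulation. The groups did not overlap, but Ag replicate 2 lay just below the lowest Ag+Costim library. Its log2 fold change was 0.64 (SE 0.21, edgeR unadjusted p = 0.013, adjusted p = 0.236).

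Slc7a6 (y+LAT2; chr8:106168857-106198706, plus strand) exchanges cationic for neutral amino acids as a partner of Slc3a2. Its 27.2, 45.6, 29.2, 31.0 and 50.03 CPM in Ag stood against 50.01, 51.3, 47.2, 56.8 and 52.5 CPM in Ag+Costim. Only Ag replicate 5 reached into the Ag+Costim range. Slc7a6 had a log2 fold change of 0.49 (SE 0.19, edgeR unadjusted p = 0.022, adjusted p = 0.250).

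Slc7a3 (CAT3; chrX:101079210-101086020, minus strand), a cationic carrier known mainly from the nervous system, was near the lower limit of what these libraries resolve. It read 0.680, 0, 0.902, 0.362 and 0.881 CPM in Ag, and 1.63, 1.16, 0.683, 2.74 and 1.19 CPM with costimulation. Ag+Costim replicate 3 lay among the Ag libraries and the other 4 above them. With a log2 fold change of 1.39 and an SE of 1.08 (edgeR adjusted p = 0.427), the difference did not stand out from its error.

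Slc38a2 (SNAT2; chr15:96687392-96699730, minus strand), a sodium-coupled carrier of small neutral amino acids known to be induced by amino acid shortage, had the smallest unadjusted p of the 10. Levels in Ag were 84.6, 108, 97.7, 93.6 and 102 CPM, and in Ag+Costim 149, 137, 119.8, 151 and 131 CPM. The groups did not overlap and both were tight, since the highest library was 1.28 times the lowest in Ag and 1.26 times in Ag+Costim. Ag replicates 1 and 4, which were low for Slc7a5, were close to the other Ag libraries here. The log2 fold change was 0.50 (SE 0.13, edgeR unadjusted p = 0.0021, adjusted p = 0.169).

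Slc38a1 (SNAT1; chr15:96571418-96642913, minus strand), which lies close by on the same chromosome and carries glutamine, differed in the same direction. It read 147, 213, 150.4, 180.2 and 204 CPM in Ag, and 234, 236, 224, 256 and 243 CPM with costimulation. The groups did not overlap, with Ag replicate 2 nearest to the Ag+Costim range. Slc38a1 had a log2 fold change of 0.42 (SE 0.15, edgeR unadjusted p = 0.016, adjusted p = 0.240).

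Slc1a5 (ASCT2; chr7:16781340-16798274, plus strand), an exchanger of glutamine and other neutral amino acids, had the opposite arrangement within Ag. It read 296, 203, 154, 344 and 214 CPM in Ag, and 248, 256, 303, 222 and 258 CPM with costimulation. Ag replicates 1 and 4, lowest for Slc7a5, were the highest Ag libraries for Slc1a5, and the Ag+Costim libraries lay inside the Ag range. The log2 fold change was 0.09 (SE 0.22, edgeR adjusted p = 0.808) and changed sign with the scaling of the counts, as given below. No difference was detectable against this spread.

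Slc1a4 (ASCT1; chr11:20302180-20332713, minus strand), an exchanger of alanine, serine and cysteine, was low and erratic in Ag. It read 0.370, 3.25, 3.68, 0.278 and 0.027 CPM in Ag, and 1.67, 1.92, 2.18, 1.92 and 2.87 CPM with costimulation. No Ag library lay inside the Ag+Costim range, 2 being above it and 3 below. A log2 fold change of 0.48 had an SE of 0.97 (edgeR adjusted p = 0.762).

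Slc7a11 (xCT; chr3:49892526-50443614, minus strand), which exchanges cystine for glutamate, was the only transporter whose mean TMM-scaled CPM was lower in Ag+Costim. It read 0.813, 0.243, 12.8, 0.622 and 0.234 CPM in Ag, and 0.214, 0.278, 0.648, 0.376 and 0.431 CPM with costimulation. A single library, Ag replicate 3, stood far above the other 9. The log2 fold change of -2.92 (SE 1.14, edgeR unadjusted p = 0.027, adjusted p = 0.257) became -0.29 without that library. Ag replicate 3 was also the shallowest and held the most erythroid and B cell marker RNA (856 and 293 CPM), whose part in this value was not tested.

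Scaling moved all genes together, so fold changes are read relative to it. The median log2 fold change of all genes tested was -0.32 with TMM factors, -0.48 with DESeq2's size factors, -0.58 with upper quartiles and -0.65 with total counts. Slc7a5 stayed between 1.11 and 1.28 under all 4, and Slc1a5 went from 0.09 to -0.07, -0.17 and -0.24. With total counts, Slc38a1 went from 0.42 to 0.16 (edgeR unadjusted p = 0.122), Slc38a2 from 0.50 to 0.23 (edgeR unadjusted p = 0.089), Slc3a2 from 0.36 to 0.16, Slc7a6 from 0.49 to 0.27 and Slc7a1 from 0.64 to 0.42. The number of transporters without overlap was 4 with TMM (4.48% of all genes) or DESeq2's size factors (2.88%), 2 with total counts (Slc7a5 and Slc7a6, 2.76%) and 1 with upper quartiles (Slc7a5, 1.48%), so the share over all genes fell as well. No transporter was lower in every Ag+Costim library under any of the 4.

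**Figure D3:**
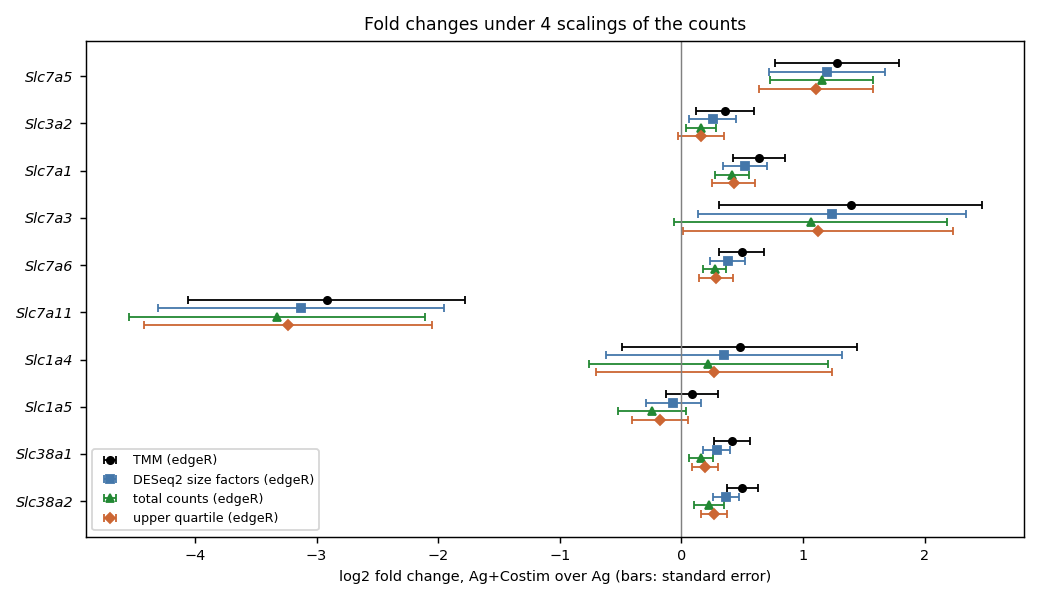
Log2 fold change (Ag+Costim over Ag) of each transporter from edgeR under 4 scalings of the counts, with bars for the standard error. Values to the right of 0 are higher in Ag+Costim. Slc7a5 lies between 1.11 and 1.28 under all 4, Slc1a5 lies on both sides of 0, and Slc7a11 rests on Ag replicate 3.

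The transporters did not move with the proliferation genes in 1 common way. In Ag replicates 1 and 4, where those genes summed to 1569 and 1684 CPM, Slc7a5 was at 13.1 and 12.2 CPM. Ag replicates 2 and 5 had proliferation sums of 11639 and 12884 CPM, within or near the 11681 to 14646 CPM of Ag+Costim, and their Slc7a5 was 78.7 and 82.9 CPM, below the Ag+Costim minimum of 101 CPM. Slc38a2 in the same replicates 2 and 5 was 108 and 102 CPM, below the Ag+Costim minimum of 119.8 CPM, whereas their Slc3a2 was within or above the Ag+Costim range. The part of proliferation in the group differences was not tested.

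**Figure D4:**
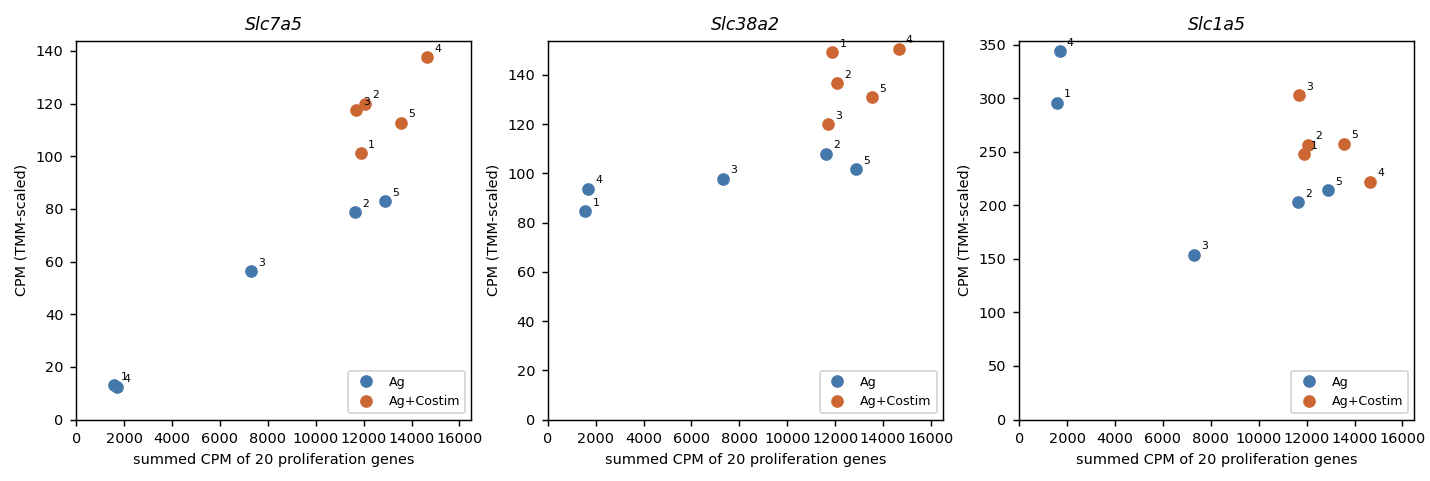
Level of Slc7a5, Slc38a2 and Slc1a5 (CPM) against the summed CPM of 20 proliferation genes in each library, labelled by replicate number. Ag replicates 1 and 4, at the left, are lowest for Slc7a5 (13.1 and 12.2 CPM) and highest within Ag for Slc1a5 (296 and 344 CPM), and Slc38a2 differs little between them and the other Ag libraries.

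Transcript usage asks whether a gene's counts are divided differently over its annotated transcripts. Of 10441 genes tested with edgeR's diffSpliceDGE, 31 (0.297%) passed a gene-level adjusted p of 0.05 with a share change above 10 percentage points. Slc7a3 was 1 of them (adjusted p = 0.021). The other 7 transporters with more than 1 testable transcript did not pass, and Slc7a5 and Slc7a11 were not tested.

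In Slc7a3 the counts lay on different transcripts in the 2 groups. Slc7a3-201 took 92.1, 93.6, 92.7, 94.0 and 99.5% of all Slc7a3 counts in replicates 1 to 5 of Ag+Costim, and 0% in the 4 Ag libraries with any. These 4 held 815 estimated counts together. Slc7a3-203 took 84.4, 94.9 and 98.5% in Ag replicates 3, 4 and 5, whereas in Ag replicate 1 the retained intron transcript Slc7a3-205 took 91.2%, and Ag replicate 2 had no counts on the gene. Slc7a3-201 and Slc7a3-203 have the same coding sequence of 618 codons. Each base of Slc7a3-201 is contained in Slc7a3-203, which adds 518 bases at the 5′ end before the start codon, so the protein encoded is the same. Coverage of the shared bases fits either transcript, so the 0% sets no counting limit. Whether it comes from StringTie's assignment of coverage or from a different 5′ end was not tested. The gene's count was 64 to 327 in these Ag libraries and 398 to 998 in Ag+Costim.

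Slc1a4 showed a similar division without passing the test. Slc1a4-201 took 53.6, 58.2, 67.7, 31.3 and 44.7% in Ag+Costim and 0, 17.6, 0, 0 and 0% in Ag, and Slc1a4-202 took the rest. The groups did not overlap, but the adjusted p was 1, and Ag replicate 5 held only 10 counts on the gene. Without Ag replicate 2, the library with 17.6%, the adjusted p was 0.0042. Slc1a4-202 starts its coding sequence 80 codons further upstream (532 codons against 452), and otherwise the annotated coding parts are the same. Each base of Slc1a4-201 is also contained in Slc1a4-202, which adds 54 bases at its ends. The 0% of Slc1a4-201 in Ag therefore sets no counting limit either. Whether it comes from StringTie's assignment of coverage or from different transcript ends was not tested, nor was a change of protein.

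**Figure D5:**
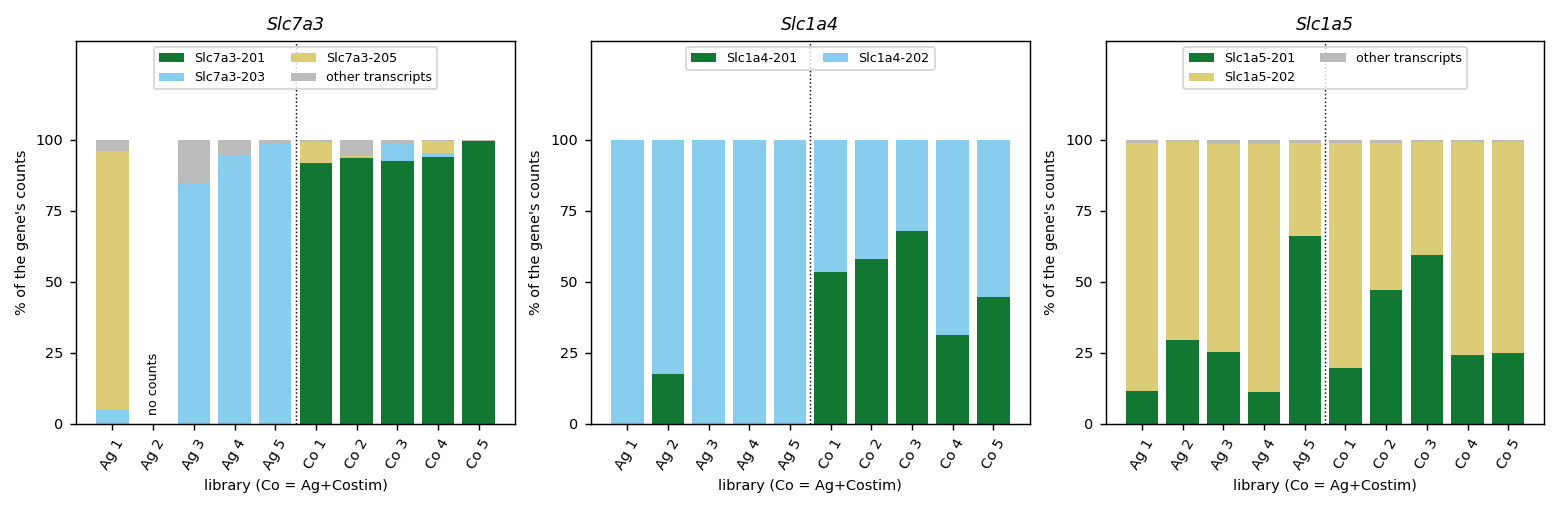
Share of a gene's counts on each named transcript of Slc7a3, Slc1a4 and Slc1a5 in each library, in percent. Slc7a3-201 fills more than 92% of the Ag+Costim bars and none of the Ag bars, Slc1a4-201 is above 31% in Ag+Costim and at most 17.6% in Ag, and Slc1a5-202 varies within both groups.

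In Slc1a5 most counts lay on a transcript annotated as having a retained intron, Slc1a5-202. It took 87.2, 69.9, 73.5, 87.5 and 32.8% of the counts in Ag and 79.4, 51.8, 39.7, 74.9 and 74.4% in Ag+Costim. These ranges overlapped (70.2 ± 22.4% against 64.0 ± 17.3%, SD, n = 5 each, diffSpliceDGE adjusted p = 1). Slc1a5-202 differs from the coding Slc1a5-201 by a start 28 bases further downstream and by 1 kept intron of 71 bases. Whether the counts on Slc1a5-202 come from the kept intron or from the different start was not tested. That intron, chr7:16795953-16796023 (mm10, plus strand), is printed here because it is the larger of these annotated differences. It is in capitals, with 20 bases of exon on each side in lower case, from the GENCODE transcript Slc1a5-202:
Slc1a5 intron: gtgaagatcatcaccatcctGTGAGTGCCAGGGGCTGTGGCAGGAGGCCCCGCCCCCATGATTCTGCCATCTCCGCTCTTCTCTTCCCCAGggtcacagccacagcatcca
The intron begins with GT and ends with AG, the usual splice site bases, and 66.2% of its bases are G or C. Read in the frame of Slc1a5-201, which has 555 codons, it holds a stop that begins at its base 2, after 432 codons.

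Retained intron transcripts were also summed per transporter. Over 6517 protein-coding genes with such a transcript and at least 50 counts in every library, their share of the counts was lower in every Ag+Costim library than in any Ag library in 3.19%, and higher in every one in 0.107%. None of the 8 transporters in this set lay apart in this way, although the mean was lower in Ag+Costim in all 8, as in 89.0% of the whole set. Slc7a1 had 15.0, 0.755, 10.6, 10.2 and 2.66% in Ag and 1.24 to 3.54% in Ag+Costim, and Slc38a2 had 11.8, 5.62, 11.9, 10.6 and 4.58% in Ag and 2.82 to 5.06% in Ag+Costim. In Slc7a11 it was 76.6, 0, 72.0, 77.6 and 0% in Ag and 0 to 6.84% in Ag+Costim. For all 3 genes, Ag replicates 1, 3 and 4 were the high libraries. The same 3 libraries had 40441 to 51778 genes with a count, against 20714 to 30340 in the other 7, and the most B cell marker RNA, and the part of either was not tested.

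Splicing events give 1 inclusion value (percent spliced in, PSI, from 0 to 1) per group, so no test over libraries was possible. Of 138940 events, 1464 (1.05%) had a Whippet probability above 0.9 and a PSI difference above 0.05. None of the 96 events in 9 of the transporters did, and Slc7a11 had no event listed. The highest probability was 0.862, for a first exon of Slc38a1 (PSI 0.073 in Ag and 0.095 in Ag+Costim). Another first exon of Slc38a1 went from 0.473 to 0.564 (probability 0.824). Slc38a1-201, Slc38a1-202 and Slc38a1-203 differ in their first exon and share a coding sequence of 485 codons. Slc38a1-203 also has a shorter 3′ end, at chr15:96575987 against 96571418 for Slc38a1-201 and Slc38a1-202. The shares of these transcripts in the gene's counts were similar between the groups (means of 51.6, 24.3 and 11.9% in Ag, and of 52.2, 25.5 and 12.3% with costimulation).

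The largest PSI differences were in Slc1a4, where the first exon stretch shared by Slc1a4-201 and Slc1a4-202 went from 0.377 to 0.643 and the stretch found only in Slc1a4-202 from 0.623 to 0.358, both with a probability of at most 0.702. At the 3′ end of Slc1a4, the shared stretch went from 0.743 to 0.992. The stretch there found only in Slc1a4-202 went from 0.257 to 0.0079, both with a probability of at most 0.569. Slc7a3 had 9 core exons, whose median PSI was 0.920 under Ag and 0.963 under Ag+Costim, and 2 events at its 3′ end, but none at the 5′ end where its transcripts differ. Slc1a5 had 7 events, all core exons with PSI above 0.999 in both groups, and no event for the 71-base intron. Over the transporters, 77 of 85 core exons had a higher PSI in Ag+Costim (90.6%), where 79.5% of 108413 core exons of all genes did.

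Genes around the transporters were read from 3 lists. Of 51 other amino acid transporters, 39 were tested and 0 passed the adjusted threshold in edgeR. Between the groups, 0 lay higher in every Ag+Costim library (4.48% of all genes) and 1 lay lower (1.13% of all genes). This was Ctns, the exporter of cystine from lysosomes, at 13.1 ± 2.32 CPM (SD, n = 5) in Ag, and at 8.30 ± 0.62 CPM with costimulation (log2 fold change -0.66, SE 0.15, edgeR adjusted p = 0.154). The median log2 fold change of this list was -0.30, close to the -0.32 of all genes, and 4 were higher and 7 lower at an unadjusted p under 0.05 (7.89% and 10.7% of all genes). DESeq2 called 1 of them higher and 12 lower (1.79% and 12.5% of the genes with a DESeq2 adjusted p), Ctns among the lower (adjusted p = 0.00035).

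In the amino acid sensing and mTORC1 list, 39 of 39 genes were tested, none passed in edgeR, and 7 lay higher in every Ag+Costim library and 0 lower (4.48% and 1.13% of all genes, and 11.3% higher at 10 CPM or more). The 3 with the largest fold change were Myc, a transcription factor that drives growth and transporter genes, Seh1l, a subunit of the GATOR2 complex, and Rraga, a small GTPase that brings mTORC1 to the lysosome. Myc was at 61.1 ± 14.3 CPM in Ag, and at 101 ± 4.78 CPM with costimulation (log2 fold change 0.72, SE 0.16, edgeR adjusted p = 0.149, DESeq2 adjusted p = 0.0014). Rraga was at 41.6 ± 11.3 and 65.0 ± 5.42 CPM, and Seh1l at 75.7 ± 32.6 and 122 ± 10.1 CPM. At an unadjusted p under 0.05, 10 genes were higher and 1 lower (7.89% and 10.7% of all genes), and the list's median was 0.15. DESeq2 called 7 higher and 2 lower (1.79% and 12.5% of the genes with a DESeq2 adjusted p).

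In the list of glutamine and cystine use, 25 of 25 genes were tested and none passed in edgeR. At an unadjusted p under 0.05, 4 were higher and none was lower (7.89% and 10.7% of all genes), and 2 lay higher in every Ag+Costim library (4.48% of all genes, 11.3% of those at 10 CPM or more). Of these, the only 1 at 10 CPM or more was Txnrd1, a thioredoxin reductase that keeps thioredoxin in its reduced form, with 132 ± 54.9 CPM in Ag, and 240.0 ± 34.1 CPM with costimulation (log2 fold change 0.86, SE 0.27, edgeR adjusted p = 0.228, DESeq2 adjusted p = 0.036). The median of the list was 0.48, against 0.49 for the 10 transporters. DESeq2 called 1 gene higher and 0 lower (1.79% and 12.5% of the genes with a DESeq2 adjusted p).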

How the data were processed

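Poly(A) RNA of sorted CD8+ T cells was amplified with SMART-Seq v4. The authors aligned reads to mm10 with HISAT2 2.1.0 and counted with StringTie 2.1.0 (per the labels' processing notes). The authors deposited StringTie's estimated counts per gene and per transcript, derived from coverage and rounded to whole numbers, from a library type that does not mark strand. The authors' deposited Whippet table holds 1 PSI per group, a fraction, with the PSI difference and its probability, both scores. All 55536 gene identifiers matched GENCODE M21, and 26345 entries without one were left out (0.0458 to 0.308% of the counts).

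The 10 transporters and the gene lists were chosen with earlier results of these data known. The comparison used edgeR 4.0.16 (filterByExpr, TMM, robust quasi-likelihood, BH over all genes), with DESeq2 1.42.0 and limma 3.58.1 as alternatives. The study describes the libraries of a group as biological replicates. Transcript shares are percent of the gene's summed counts, and TPM uses annotated lengths. Transcripts with a mean share of 10% or more are named, and from each list up to 3 genes per direction with the largest fold change among those without overlap and at 10 CPM or more. Tested on simulated counts with a dispersion of 0.05, edgeR recovered 89.5% of 200 genes changed 2-fold among 24248, with 6.28% of its calls wrong, and the usage test recovered 100% of 100 genes among 10435 whose 2 leading transcripts were exchanged. The spread within Ag was wider than simulated for several transporters (71% of the mean for Slc7a5), so recovery in these data may be lower. Recovery by either test at the low counts of Slc7a3 and Slc1a4 was not tested separately. Slc7a5 lies within the span of Gm20388 on the other strand and Slc7a11 overlaps 5 small genes, without sharing exon bases.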

Additional observations from a re-analysis of the deposited data

Results flagged for a closer look

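Values far from the rest of their group were sought in 61 sets of transporter levels, chain ratios and transcript shares, and 9 stood apart. The sets held 5 libraries, or 4 for the Slc7a3 shares in Ag. Chance alone flags about 1 in 20, a rate that need not hold for shares at 0%. Slc7a11 in Ag replicate 3 was 12.8 CPM, with the nearest Ag library at 0.813 CPM. The share of Slc1a4-201 in Ag replicate 2 was 17.6%, with the other Ag libraries at 0%, and that of Slc1a4-202 was accordingly 82.4%. Slc7a3-203 took 4.89% in Ag replicate 1, where Slc7a3-205 took 91.2%, against 0% in the other Ag libraries with counts. In Ag+Costim, Slc7a3-201 was 99.5% in replicate 5 and Slc7a3-203 was 5.78% in replicate 3. Slc7a11-202 was 3.65% in Ag+Costim replicate 4 and 0% in the other 4, and Slc7a6-201 was 75.3% in Ag+Costim replicate 1, with the nearest at 81.7%. Several of these shares belong to genes with few counts and are not independent of each other.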

How the results depend on the processing

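No gene passed with edgeR under TMM factors, other scalings, no filter, any library left out or the replicate block, where 4501 genes had an unadjusted p under 0.05 under TMM. DESeq2 called 6214 genes and voom with library weights 12632. The number of genes called for usage, 31, was 145 with limma's diffSplice, 232 with at least 50 counts of the gene in 5 libraries, 33 to 93 with 1 library left out and 30 with the block. Transporters without overlap, an alternative chosen after seeing the data, numbered 2 with total counts (2.76% of all genes), 1 with upper quartiles (1.48%), and 4 to 5 with 1 library left out (4.14 to 7.01% of all genes). Slc7a6 joined without Ag replicate 5 (7.01%) and Slc7a3 without Ag+Costim replicate 3 (4.87%). Slc1a5 reversed to -0.068 (DESeq2 size factors), -0.242 (total counts), -0.174 (upper quartile), -0.059 (DESeq2), -0.206 (voom) and -0.035 (without Ag replicate 3, the lowest of -0.035 to 0.256 with 1 library left out). Slc7a11 had no DESeq2 p, and its log2 fold change was -0.29 without Ag replicate 3. The log2 chain ratio difference was -1.27 with gene counts over the longest coding transcript, and with 1 library left out lay between -1.55 and -0.999 (exact p at most 0.040). Usage of Slc7a3 stayed under 0.05 in every leave-one-out fit (at most 0.045). Replicate numbers did not pair the libraries, since same-numbered deviations correlated at 0.17, 0.03, -0.08, -0.29 and 0.02. With the block, the chain ratio difference was -1.29 (exact sign-flip p = 0.0625, the smallest possible) and Slc7a3 usage had an adjusted p of 0.142. No transporter's event passed at a probability of 0.95 or a PSI difference of 0.1. The causes of these changes were not tested. Slc7a3, Slc1a4 and Slc7a11 rest on few estimated counts, 0 to 1271 per library.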
